A study of Mus musculus with 6 samples.

Results

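Type I interferon antiviral effectors are the genes that interferon alpha and beta switch on to block viral replication. The rule took every row of the deposited table whose gene name was in a fixed list of 39 such genes, with the GBP, IRG, Ifi200, Schlafen, IRF and STAT families left out. All 39 names were found, each in 1 row, among 27240 genes. The RNA came from primary macrophages of the mouse peritoneal cavity, and the labels give oxLDL (oxidised low-density lipoprotein, a lipid particle cleared by scavenger receptors) for each of the 6 libraries. Of these, 3 are labelled KO for genotype and 3 WT. The series title names the kinase DCLK1 and the inhibitor of κB kinase IKKβ, but the labels name neither the deleted gene nor the deleted part, any Cre driver, the strain or the age. Whether the replicates are different mice or cultures is not stated. The p-values therefore reflect nothing beyond the spread among these libraries, and that spread may be technical. Every library had oxLDL, so the comparison is of genotype under oxLDL and the response to oxLDL itself is not analysed here.

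Type I interferons bind the receptor IFNAR1-IFNAR2, whose kinases JAK1 and TYK2 start a signal to the nucleus. Transcription factors that include IRF9 then bind interferon-stimulated response elements (ISRE) in the promoters of the effector genes. The effectors sense viral RNA, degrade it, stop its translation or block viral entry and budding. Macrophages keep a low tonic level of this programme without infection and raise it strongly on contact with viral or bacterial products.

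Libraries held between 68053008 and 79090732 counts in total. Levels are in CPM, a count divided by the TMM-scaled depth of its library, on which a single count was worth 0.0127 to 0.0147. Where nothing was counted, a level of up to 3 counts (0.0381 to 0.0441 CPM) is possible from counting error alone, if each count is 1 read. The sources do not say that it is. The marker gene Klrb1c, for example, had 4, 4 and 0 counts in KO and 4, 0 and 0 counts in WT libraries. A read may therefore stand for several counts, and the true floor may be higher. Dclk1 had 415, 431 and 377 counts in KO libraries, against 494, 498 and 584 counts in WT libraries (0.776 times the WT level in CPM, edgeR adjusted p = 0.332). That count over the whole gene checks the genotype labels only weakly. Of 8 macrophage markers, 7 apart from Lyz2 summed to 4654 to 4750.2 CPM in KO and 4514 to 4701 CPM in WT libraries, so the labelled cell type carried its markers in both groups. The single markers were not all level. Lyz2, the macrophage lysozyme gene, was at 0.487 times its WT level (edgeR adjusted p = 6.5e-06), and with it the sums were 12606 to 12752 CPM in KO and 20373 to 21613 CPM in WT libraries. Itgam, which encodes the integrin CD11b, was at 599, 417 and 524 CPM in KO libraries, against 415, 232 and 332 CPM in WT libraries, without overlap (1.57 times, edgeR adjusted p = 0.344).

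All 39 effector genes were expressed, the lowest count of any of them in any library being 84, and all passed the filter on low counts. Of these, 33 had a fitted value lower in KO than in WT libraries, or 84.6%, where 50.5% of the 16239 genes tested did. The median log2 fold change of the 39 genes was -0.21, a fold of 0.865, where the median of all genes tested was -0.0019. None passed at an edgeR adjusted p under 0.05, where 0.0677% of all genes did (0.0431% with KO lower). At an unadjusted p under 0.05 there were 23, where 10.4% of all genes were. Of these, 21 had KO lower, or 53.8% of the list, against 5.71% of all genes tested. DESeq2 on the same counts called 13 of the 39, 11 lower and 2 higher, where it called 2.80% of all genes. The KO and WT values did not overlap for 21 genes with KO lower (53.8%, against 8.89% of all genes tested) and for 3 with KO higher (7.69%, against 8.68%). In RNA from a whole culture, fewer cells of a responding type and less RNA per cell cannot be told apart.

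**Figure D1:**
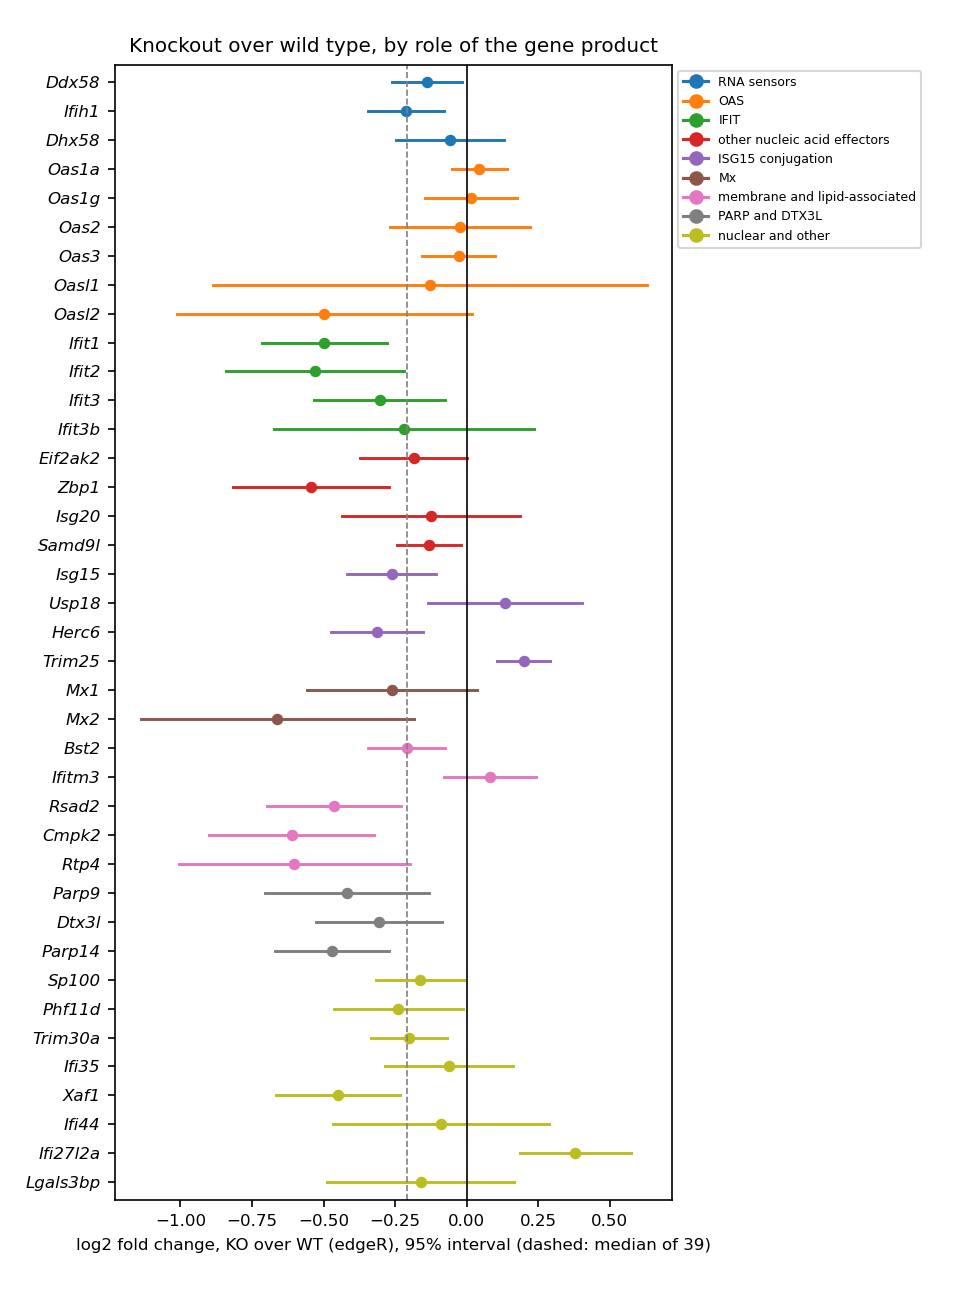
Each point is the log2 fold change of 1 gene, KO over WT, with the 95% interval from the edgeR fit on 3 KO and 3 WT libraries, coloured by role (OAS, oligoadenylate synthetases). Of the 39 points, 33 lie left of 0, and the dashed line marks their median of -0.21.

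The sizes were modest. Of the 39 genes, 11 were at less than 0.75 times the WT level, 13 between 0.75 and 0.9 times, 13 between 0.9 and 1.1 times and 2 above 1.1 times. The most distant were Mx2 at 0.632 times and Ifi27l2a at 1.30 times. The genes lie on 14 chromosomes, and some sit side by side: the 4 Ifit genes on chromosome 19, the genes Oas1a, Oas1g, Oas2 and Oas3 on chromosome 5 with Oasl1 and Oasl2 in a separate cluster of that chromosome, Rsad2 and Cmpk2 on chromosome 12, and Parp9, Dtx3l and Parp14 on chromosome 16. Herc6, Rtp4 and Ifitm3 share 12.5%, 11.6% and 10.02% of their 50-base transcript sequences with other genes, and 16.8% of the exonic bases of Ifi35 lie under an antisense transcript, so their counts are less certain. Positions are given as deposited, and 35 of the 39 genes have the same coordinates and strand in GENCODE M21 on GRCm38.

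On the deposited FPKM scale, which corrects for gene length, the mean level over 6 libraries ran from 0.431 for Mx2 to 499 for Lgals3bp, with a median of 10.7. Lgals3bp, which encodes a secreted galectin-binding glycoprotein, averaged 473 FPKM in KO and 524 FPKM in WT libraries. Ifitm3, a membrane protein that blocks viral fusion, averaged 341 FPKM in KO and 319.9 FPKM in WT libraries, and Bst2, which tethers budding virions to the cell surface, 113 and 129.8 FPKM. Isg15 and Ifi27l2a came next, at 68.3 and 84.1 FPKM in KO and 81.2 and 64.1 FPKM in WT libraries. Lgals3bp alone held 27.3% to 34.3% of the summed FPKM of the 39 genes in KO libraries and 32.2% to 34.2% in WT libraries. A sum over the list therefore follows Lgals3bp more than any other gene, and the results below are given gene by gene.

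**Figure D2:**
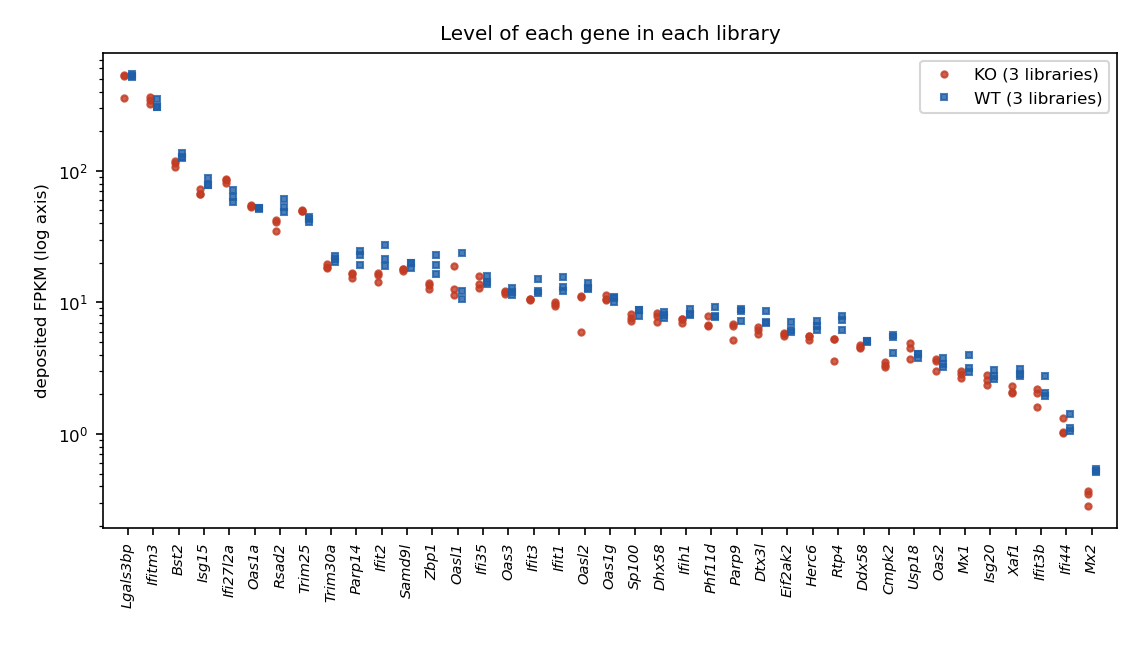
Each symbol is the deposited FPKM of 1 gene in 1 library (circles KO, squares WT, 3 each), on a log axis, with genes ordered by mean level. The symbols span 0.282 FPKM (Mx2 in KO replicate 3) to 539.6 FPKM (Lgals3bp in WT replicate 1), and for 21 of the 39 genes all KO circles lie below all WT squares.

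RefSeq promoter windows (GRCm38.p6, 250 bases before to 50 after the gene start) were matched for 29 of the 39 genes, with 34 windows in all. The ISRE core was searched as GAAANNGAAA on both strands, which reads TTTCNNTTTC on the opposite strand, and matches that overlap in 1 run were counted separately. It was found in 15 of 34 windows (44.1%) belonging to 14 genes, while 3.43% of all 32817 RefSeq windows held it. Among the 14 genes 11 lay below 0 (median log2 fold change -0.20), and among the 15 genes with no match 14 did (median -0.16). Windows of 5 genes are printed 5′ to 3′ on the gene's strand, with the ISRE matches in capitals, to set 3 genes with fitted values well below 0 (Ifit1, Isg15, Rsad2) beside 2 with values near 0 (Oas1a, Ifitm3). They are chr19:34640639-34640938 (plus strand), chr4:156200769-156201068 (minus), chr12:26456403-26456702 (minus), chr5:120907476-120907775 (minus) and chr7:141010695-141010994 (minus).
Ifit1: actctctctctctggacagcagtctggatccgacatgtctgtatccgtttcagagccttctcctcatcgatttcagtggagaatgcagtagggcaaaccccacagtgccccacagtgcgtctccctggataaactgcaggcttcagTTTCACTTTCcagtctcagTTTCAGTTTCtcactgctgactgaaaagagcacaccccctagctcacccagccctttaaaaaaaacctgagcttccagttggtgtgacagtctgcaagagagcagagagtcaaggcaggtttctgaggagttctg
Isg15: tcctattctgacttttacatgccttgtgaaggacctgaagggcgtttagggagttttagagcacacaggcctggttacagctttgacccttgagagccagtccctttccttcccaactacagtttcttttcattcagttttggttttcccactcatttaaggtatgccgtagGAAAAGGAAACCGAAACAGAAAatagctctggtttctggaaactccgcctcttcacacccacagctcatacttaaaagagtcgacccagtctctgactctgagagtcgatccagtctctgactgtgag
Rsad2: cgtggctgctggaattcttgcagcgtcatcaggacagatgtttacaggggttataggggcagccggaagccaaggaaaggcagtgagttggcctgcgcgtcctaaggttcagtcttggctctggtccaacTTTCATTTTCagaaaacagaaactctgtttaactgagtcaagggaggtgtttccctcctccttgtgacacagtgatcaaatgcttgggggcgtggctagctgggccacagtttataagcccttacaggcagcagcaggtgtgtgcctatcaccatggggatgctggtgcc
Oas1a: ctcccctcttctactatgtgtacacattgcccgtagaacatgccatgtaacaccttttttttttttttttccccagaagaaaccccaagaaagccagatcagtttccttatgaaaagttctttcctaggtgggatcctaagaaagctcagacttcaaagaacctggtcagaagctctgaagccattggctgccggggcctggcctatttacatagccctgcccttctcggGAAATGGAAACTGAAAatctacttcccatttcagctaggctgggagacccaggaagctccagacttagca
Ifitm3: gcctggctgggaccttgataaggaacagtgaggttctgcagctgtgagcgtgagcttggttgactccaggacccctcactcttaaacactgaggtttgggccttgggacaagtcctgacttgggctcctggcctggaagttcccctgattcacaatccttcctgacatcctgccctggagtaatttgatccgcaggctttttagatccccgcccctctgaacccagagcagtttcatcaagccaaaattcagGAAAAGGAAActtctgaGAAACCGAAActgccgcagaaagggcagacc
Counting the start base as 0, the matches begin at -104 and -85 in Ifit1, at -78, -72 and -66 in Isg15, at -120 in Rsad2, at -20 and -14 in Oas1a and at 2 and 19 in Ifitm3. The motif thus stood in windows of genes at 0.709 times the WT level (Ifit1) and at 1.06 times (Ifitm3) alike. A match is a stretch of letters and not a measured binding site.

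Among the cytosolic RNA sensors of the RIG-I-like family, all 3 genes had fitted values below 0, as 50.5% of all genes tested did, and none passed. Ifih1 encodes MDA5, the sensor of long double-stranded RNA, and was at 68.1, 63.4 and 67.3 CPM in KO libraries, against 81.3, 74.1 and 74.7 CPM in WT libraries. The groups did not overlap (log2 fold change -0.21, SE 0.0569, edgeR adjusted p = 0.243). Dhx58, which encodes the regulator LGP2, was at 28.5, 25.7 and 30.3 CPM in KO and 27.6, 29.7 and 30.7 CPM in WT libraries, which overlap. Ddx58, which encodes RIG-I itself, had a narrow spread, with 35.2 to 37.3 CPM in KO and 39.6 to 40.1 CPM in WT libraries, or 0.908 times the WT level.

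The IFIT genes encode proteins with tetratricopeptide repeats, some of which bind viral RNA with foreign cap structures and block its translation. All 4 had fitted values below 0, as 50.5% of all genes tested did, and 3 were lower with no overlap between groups, as 8.89% of all genes were. Ifit2 (chromosome 19, 34550694 to 34576419) was at 69.9, 73.5 and 61.9 CPM in KO libraries, against 119.6, 83.1 and 93.7 CPM in WT libraries. Each KO value lay below each WT value, and WT replicate 1 stood well above the other WT libraries (log2 fold change -0.53, SE 0.133, edgeR adjusted p = 0.209). Ifit1 (chromosome 19, 34640871 to 34650009), whose window above holds a pair of ISRE matches, was at 27.8, 29.7 and 28.6 CPM in KO libraries, against 46.2, 36.7 and 38.5 CPM in WT libraries. Its KO libraries lay close together and all below WT (log2 fold change -0.50, SE 0.0934, edgeR adjusted p = 0.115). Ifit3 was at 0.810 times and Ifit3b at 0.859 times the WT level. These last genes share 51.2% and 45.0% of their 50-base transcript sequences with other genes, mainly with each other, so how the counts were divided between them is uncertain.

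The oligoadenylate synthetases, which sense double-stranded RNA and activate RNase L or act without it, stood apart from the IFIT genes in size, with a median log2 fold change of -0.03 over 6 genes against -0.40 over 4. The difference between these medians was not tested. Oas1a was at 111, 115 and 112 CPM in KO and 109, 108 and 110.4 CPM in WT libraries. The KO values were all higher, by little (1.03 times, 95% interval of the log2 fold change -0.05 to 0.14, edgeR adjusted p = 0.770). Oas1g, Oas2 and Oas3 were at 1.01, 0.985 and 0.981 times the WT level, with intervals of -0.15 to 0.18, -0.27 to 0.22 and -0.16 to 0.10 on the log2 scale. Oas1a shares 57.6% of its 50-base sequences with other genes, mainly Oas1g, and their separate counts are uncertain. The genes with the widest spread were the OAS-like ones. Oasl2 was at 77.6, 79.5 and 41.9 CPM in KO libraries, against 99.8, 90.3 and 90.9 CPM in WT libraries. KO replicate 3 was far below the other KO libraries (edgeR adjusted p = 0.498), and without it the log2 fold change was -0.25 in place of -0.50. Oasl1, which in mouse represses translation of Irf7, was at 36.4, 55.2 and 32.8 CPM in KO and 69.3, 31.1 and 35.7 CPM in WT libraries, so WT held both the highest and the lowest value. Its log2 fold change was 0.31 without WT replicate 1, in place of -0.13.

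Among other effectors that act on nucleic acids, Zbp1, a sensor of Z-form RNA that can trigger necroptosis, was at 53.2, 55.1 and 49.6 CPM in KO libraries, against 90.01, 76.0 and 64.2 CPM in WT libraries. The groups were clear of each other, with the wider spread in WT (0.686 times, log2 fold change -0.54, SE 0.117, edgeR adjusted p = 0.149). Samd9l, a restriction factor that limits translation, was at 109, 109 and 103 CPM in KO and 119, 112 and 119.9 CPM in WT libraries, or 0.912 times. The values did not overlap but lay close (edgeR adjusted p = 0.393). Eif2ak2, which encodes the kinase PKR, was at 0.880 times and the exonuclease gene Isg20 at 0.918 times the WT level.

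The 4 effector genes grouped under ISG15 conjugation were split in direction, with 2 fitted values below 0 and 2 above. The ISG15 enzyme genes Ube2l6 and Uba7, outside the 39 and described further below, were at 0.570 and 0.784 times the WT level. Isg15 encodes the ubiquitin-like modifier (chromosome 4, 156199455 to 156200796, minus strand) and was at 56.2, 51.8 and 51.6 CPM in KO libraries, against 68.7, 61.1 and 61.5 CPM in WT libraries. The groups did not overlap (0.834 times, log2 fold change -0.26, SE 0.0667, edgeR adjusted p = 0.213). Herc6, the main ISG15 ligase gene of mouse, was at 0.805 times, with no overlap. Trim25, which encodes a ubiquitin ligase acting on RIG-I, was at 314, 321 and 315 CPM in KO libraries, against 285, 265 and 277 CPM in WT libraries. All KO values lay above all WT values (1.15 times, log2 fold change 0.20, SE 0.0396, edgeR adjusted p = 0.131). Usp18, which removes ISG15 and damps receptor signalling, was at 13.6 ± 1.83 CPM in KO and 12.4 ± 0.472 CPM in WT libraries (SD, n = 3 each), within the spread.

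The Mx genes encode dynamin-like GTPases that trap viral nucleocapsids. Mx1 was at 11.9, 11.2 and 12.7 CPM in KO and 16.9, 12.7 and 13.3 CPM in WT libraries, where the highest KO and lowest WT values met (edgeR adjusted p = 0.540). Mx2 was the least abundant of the 39 genes, at 1.496, 1.42 and 1.15 CPM in KO libraries, against 2.12, 2.23 and 2.08 CPM in WT libraries. No KO value reached the WT range (0.632 times, log2 fold change -0.66, 95% interval -1.14 to -0.18, edgeR adjusted p = 0.314).

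Rsad2 and Cmpk2 are divergent neighbours on chromosome 12 (Rsad2 26442746 to 26456452, Cmpk2 26469204 to 26479837). Rsad2 encodes viperin, which makes a chain-terminating nucleotide, and Cmpk2 the mitochondrial kinase that supplies its substrate. Rsad2 was at 197, 205 and 169 CPM in KO libraries, against 295, 235 and 257 CPM in WT libraries (0.725 times, SE of the log2 value 0.1001, edgeR adjusted p = 0.150). Cmpk2 was at 15.5, 16.3 and 14.9 CPM in KO libraries, against 25.5, 19.4 and 26.4 CPM in WT libraries (0.655 times, SE 0.123, edgeR adjusted p = 0.131). For both genes every KO library lay below every WT library. Rtp4, which encodes an interferon-induced transmembrane protein that inhibits some flaviviruses, was at 0.659 times and Bst2 at 0.865 times, neither with overlap. Ifitm3 did not share this pattern, with 271, 257 and 241 CPM in KO and 265, 233 and 229 CPM in WT libraries, which overlap (95% interval of the log2 fold change -0.08 to 0.24).

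PARP9 and DTX3L form a complex of an ADP-ribosyltransferase-like protein and a ubiquitin ligase that modifies histones and viral proteins, and PARP14 is a related ADP-ribosyltransferase. All 3 genes had KO lower without overlap between groups, as 8.89% of all genes tested did. Parp14 (chromosome 16, 35832874 to 35871544) was at 168, 173 and 159 CPM in KO libraries, against 254, 201 and 237 CPM in WT libraries. It had the smallest adjusted p of the 39 genes (0.722 times, log2 fold change -0.47, SE 0.0848, edgeR adjusted p = 0.105), and it was the only one to pass in edgeR without WT replicate 2 (adjusted p = 0.039, range over the alternatives 1.0e-05 to 0.515). Parp9 was at 0.749 times and Dtx3l at 0.809 times the WT level. These genes overlap by 458 exonic bases on opposite strands, and no source says whether counting used strand, so reads there cannot be assigned with certainty.

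The remaining genes were mixed. Xaf1, which encodes a pro-apoptotic binding partner of XIAP, was at 10.9, 12.1 and 10.7 CPM in KO libraries, against 16.3, 15.04 and 14.6 CPM in WT libraries, with no overlap (0.733 times, SE of the log2 value 0.0920, edgeR adjusted p = 0.134). Trim30a, a ubiquitin ligase gene, was at 0.870 times without overlap, while Sp100 (a nuclear body protein, 0.894 times), Phf11d (0.848 times), Ifi35 (0.959 times) and Ifi44 (0.940 times) overlapped. Ifi27l2a, a small mitochondrial or nuclear envelope protein gene, was at 43.4, 41.5 and 44.6 CPM in KO libraries, against 36.8, 32.8 and 30.0 CPM in WT libraries. Its KO values all exceeded its WT values (1.30 times, log2 fold change 0.38, SE 0.0832, edgeR adjusted p = 0.157). Lgals3bp was at 1694, 1657 and 1124 CPM in KO and 1711, 1639 and 1654 CPM in WT libraries. Only KO replicate 3 differed from the rest, and without it the log2 fold change was 0.0066 in place of -0.16.

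The genes also varied between libraries of a group, in a shared way. Among WT libraries alone, replicate 1 was the highest for 29 of the 39 genes (74.4%, against 34.4% of all genes tested). Among KO libraries alone, replicate 3 was the lowest for 25 (64.1%, against 33.3%). Over all 6 libraries, WT replicate 1 was the highest for 25 genes (64.1%, against 19.0%). KO replicate 3 was the lowest of the 6 for 22 (56.4%, against 17.7%). The counts over all 6 libraries also hold the difference between KO and WT. The median gene stood 0.16 log2 units higher in WT replicate 1 than in the mean of WT replicates 2 and 3, where the median of all genes was 0.0034. The median difference of KO replicate 3 from the mean of KO replicates 1 and 2 was -0.091 log2 units, where it was 0.0031 over all genes. By median deviation from the mean of all 6 libraries, the IFIT genes were the highest role in WT replicate 1, at 0.408. The membrane and lipid-associated group, which holds Rsad2 and Cmpk2, was at 0.404. That measure also holds the difference between KO and WT. Within WT, replicate 1 exceeded the mean of replicates 2 and 3 by 0.295 to 0.436 log2 units for the IFIT genes. For the membrane and lipid-associated group it did so by 0.115 (Bst2) to 0.262 (Rsad2). Without WT replicate 1 there were 29 genes with fitted values below 0 (50.3% of all genes tested were) and the median was -0.16. Without KO replicate 3 there were 30 (50.7% of all genes) and the median was -0.17. Without both libraries, an alternative chosen after seeing the data, 27 of 39 had fitted values below 0 (50.2% of all genes). The median there was -0.14. In that fit 12 were at an unadjusted p under 0.05 with KO lower, and the share of all genes at that p was not computed. These 2 libraries were singled out by the values of the genes described here, so the counts with and without them are a description.

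**Figure D3:**
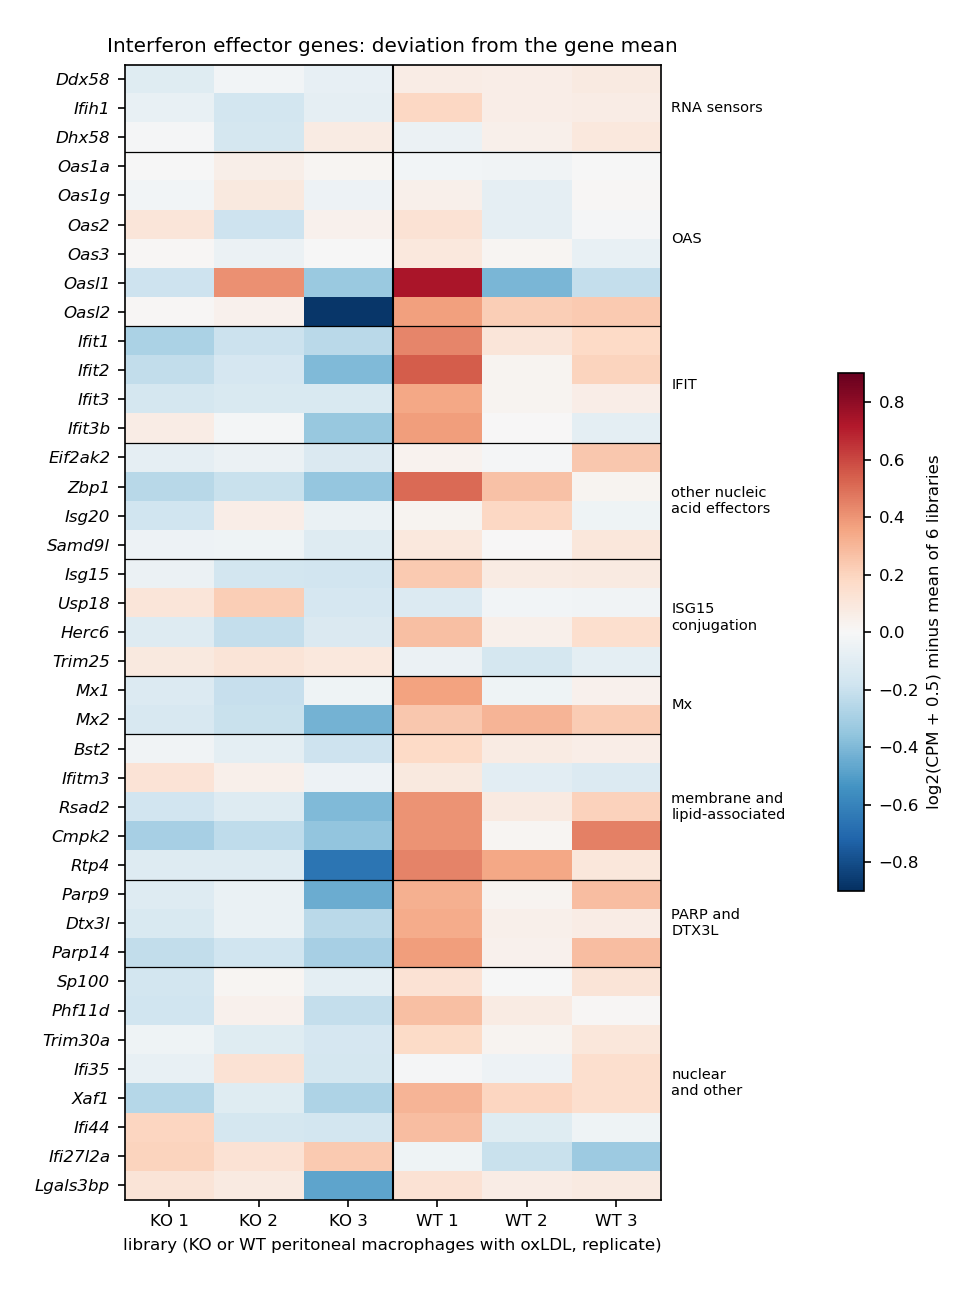
Colour gives log2(CPM + 0.5) of each gene in each library minus that gene's mean over 6 libraries, with KO libraries left of the line and WT libraries right of it, and genes grouped by role. WT replicate 1 is the reddest column (highest for 25 of 39 genes) and KO replicate 3 the bluest (lowest for 22).

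**Figure D4:**
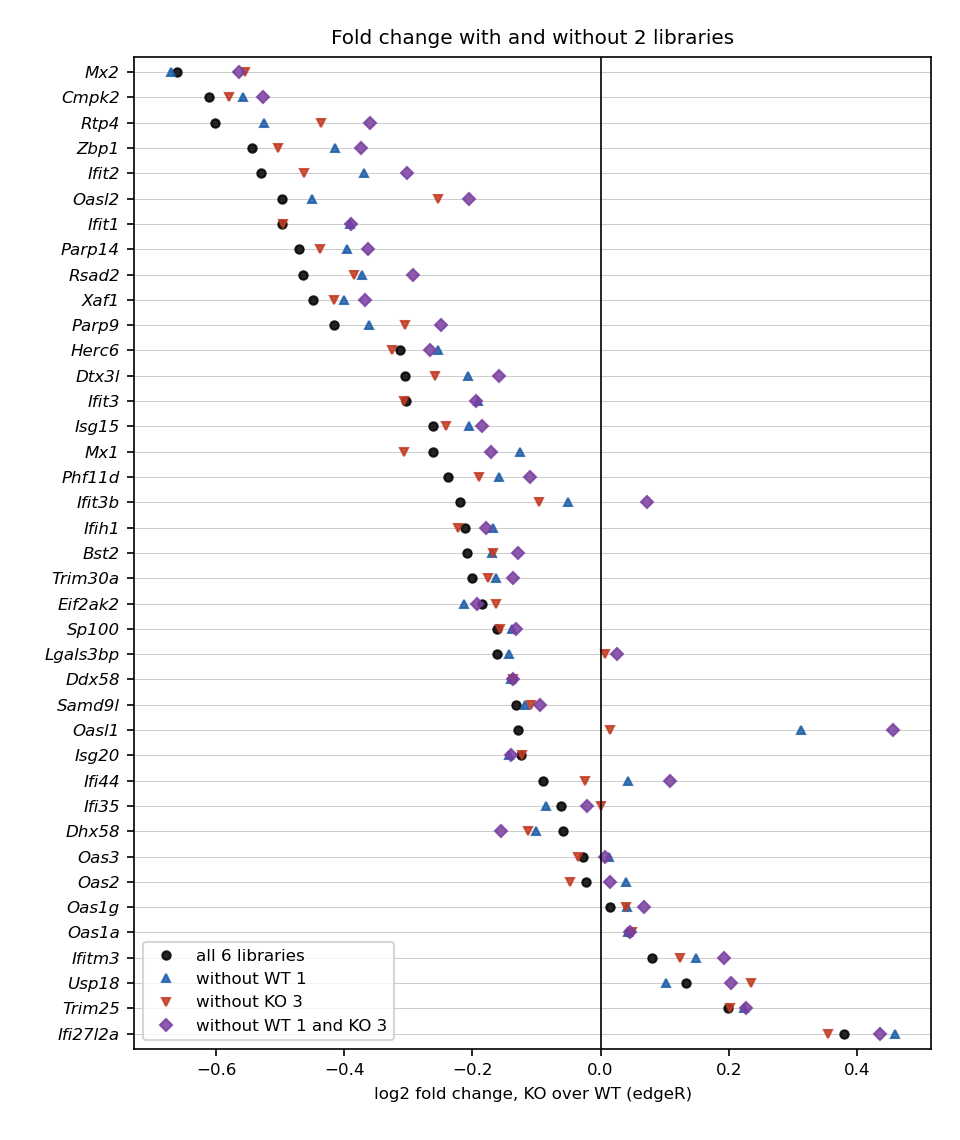
Log2 fold changes, KO over WT, from edgeR with all 6 libraries, without WT replicate 1, without KO replicate 3 and without both, with genes ordered by the value from all libraries. The median over the 39 genes is -0.21 with all libraries and -0.14 without both, and Oasl1 moves farthest, to 0.46.

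Other measures that differed between the groups or stood out in 1 of these libraries are given here, and their part in the result was not tested. WT replicate 1 was the highest library for the T and NK cell, neutrophil and mast cell sums. KO replicate 3 was the lowest library for the macrophage sum with Lyz2 (12606 CPM), and for none of the other marker sums given here. A row annotated as ribosomal RNA (CT010467) was at 909, 1587 and 2635 CPM in KO libraries, against 645, 708 and 644 CPM in WT libraries, and KO replicate 3 was the highest. The 11 T and NK cell markers, of cells that make interferon gamma, summed to 13.4 to 14.8 CPM in KO and 15.9 to 18.1 CPM in WT libraries. None was at 0 in all libraries, but the NK cell genes Ncr1 and Klrb1c had only 0 to 8 counts per library. Of the 9 tested, 7 had fitted values below 0 (77.8%, against 50.5% of all genes tested). Gzmb, at 1.17 times the WT level, and Gzma, at 0 to 0.451 CPM, went the other way. Ifng, the interferon gamma gene, was at 0.200, 0.191 and 0.0410 CPM in KO and 0.735, 0.108 and 0.229 CPM in WT libraries. WT replicate 1 again was the highest, and the groups overlapped (edgeR adjusted p = 0.690). Plasmacytoid dendritic cells, a major source of interferon alpha, had 6 markers besides Bst2 that summed to 14.002 to 15.8 CPM in KO and 9.32 to 13.9 CPM in WT libraries, with their defining marker Siglech at 0 in all 6. Most of that sum was Tcf4 (11.4 to 13.6 CPM in KO and 7.18 to 10.7 CPM in WT libraries). Ccr9 was at 0.665 times and Cox6a2 at 0.999 times the WT level, and Klk1 and Pacsin1 had 0 to 4 counts per library. The 6 neutrophil markers summed to 20.7 to 22.98 CPM in KO and 23.6 to 26.3 CPM in WT libraries, with Ly6g and Retnlg at 0 in all. That sum was almost wholly S100a8 (20.3 to 22.6 CPM in KO and 23.5 to 26.2 CPM in WT libraries), while S100a9 had 15, 15 and 8 counts in KO libraries, against 4, 0 and 0 counts in WT libraries. The 8 mesothelial and fibroblast markers summed to 63.1 to 73.5 CPM in KO and 83.7 to 87.0 CPM in WT libraries. The sums of 6 conventional dendritic cell markers were 11.6 to 14.2 CPM in KO and 14.3 to 16.9 CPM in WT libraries, those of 5 mast cell markers 2.97 to 4.25 and 4.98 to 6.10 CPM, and those of 6 B cell markers 5.11 to 6.39 and 4.31 to 5.06 CPM.

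The rest of the pathway was read from a list of 94 genes, of which 73 were in the table and 67 were tested. Of the 67, 50 lay below 0 (74.6%, against 50.5% of all genes tested), and their median log2 fold change was -0.11. None passed at an edgeR adjusted p under 0.05, and 19 were at an unadjusted p under 0.05 (10.4% of all genes were), 18 of them with KO lower (5.71% of all genes). DESeq2, which called 2.80% of all genes, called 9 of the 67, all with KO lower, among them Irf1, Jak2, Ptpn6 and Tor3a.

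Interferon ligand messages were at or near the detection limit. Of 20 type I and III interferon genes listed, 3 were in the table and none could be tested. Ifnb1, the interferon beta gene, had 8, 0 and 0 counts in KO and 0, 0 and 0 counts in WT libraries. Ifnk and Ifnz had 0 to 6 counts per library in both groups. Receptor genes were well expressed, with Ifnar1 at 150.1, 145 and 115 CPM in KO and 122, 115 and 127 CPM in WT libraries, which overlap. Ifnar2 was at 117 ± 2.24 CPM in KO and 117 ± 3.20 CPM in WT libraries (SD, n = 3 each). Of the receptor-bound kinases, Jak1 was at 0.976 times, Tyk2 at 0.949 times and Jak2 at 0.815 times the WT level (edgeR adjusted p = 0.781, 0.640 and 0.127).

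Among the transcription factors downstream of the receptors, Irf9 was at 0.848 times the WT level. Irf1, a transcription factor that acts on many of the same promoters, was at 76.5, 97.8 and 81.3 CPM in KO libraries, against 207, 162 and 141 CPM in WT libraries. That is 0.501 times, with no overlap (edgeR adjusted p = 0.076). Irf7, the amplifier of interferon alpha production, was at 123, 103 and 106 CPM in KO and 106, 96.0 and 86.2 CPM in WT libraries, which overlap. In the sensing arm, 7 of 11 tested genes had fitted values below 0 (63.6%, against 50.5% of all genes tested). Mavs, the adaptor of RIG-I and MDA5, was at 1.03 times, and the kinase gene Tbk1 at 0.936 times. Tlr7, a sensor of single-stranded RNA, was at 87.0, 85.4 and 82.5 CPM in KO and 91.3, 26.6 and 30.8 CPM in WT libraries. WT replicate 1 lay with the KO libraries there, and without it Tlr7 passed, with a log2 fold change of 1.56 (edgeR adjusted p = 0.0025, against 0.596 with all libraries). Of the feedback inhibitors, Socs3 was at 0.790 times without overlap, Socs1 at 0.651 times with overlap, and the phosphatase gene Ptpn6 at 0.725 times without overlap (edgeR adjusted p = 0.076).

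**Figure D5:**
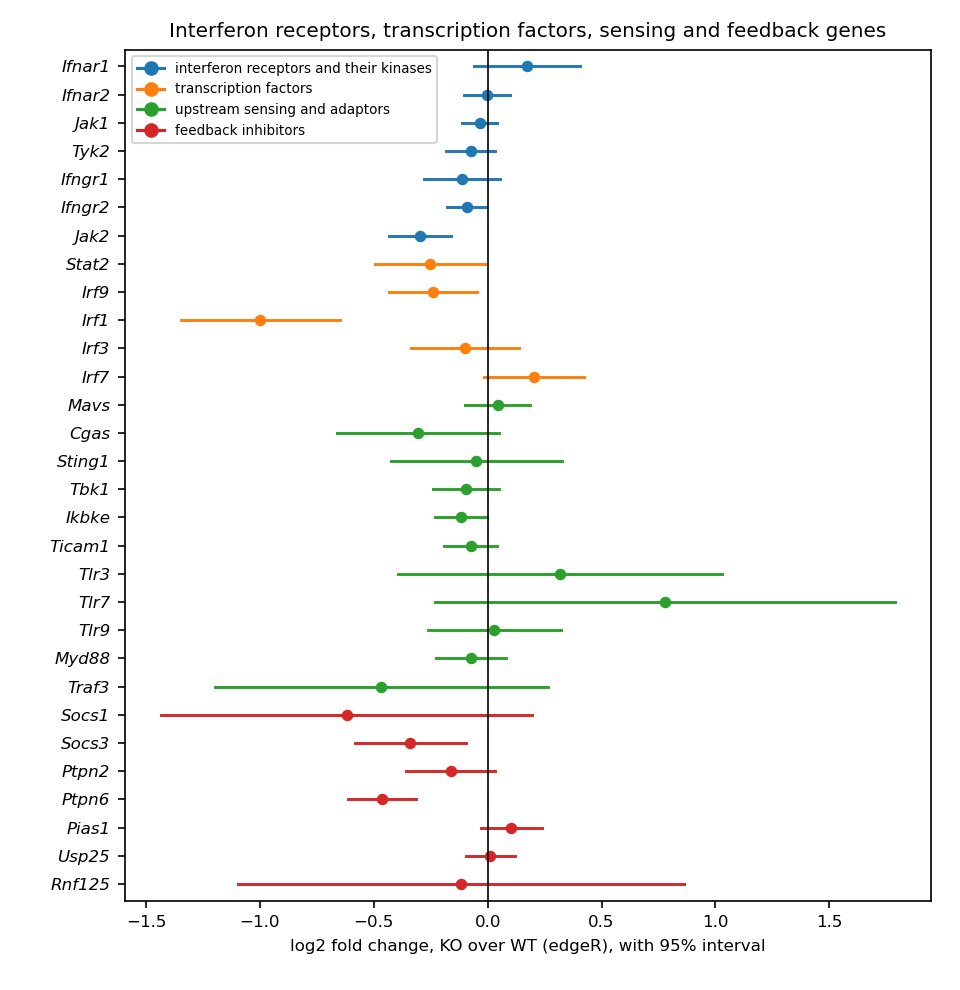
Log2 fold changes, KO over WT, with 95% intervals from the edgeR fit for tested receptor, transcription factor, sensing and feedback genes, coloured by class. Irf1 lies at -0.998, while Ifnar2 lies next to 0.

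Of the 35 other interferon-induced antiviral genes tested, 26 lay below 0 (74.3%, against 50.5% of all genes tested, median log2 fold change -0.15). Ube2l6 and Uba7, which encode the conjugating and activating enzymes of ISG15, were at 0.570 and 0.784 times the WT level, neither with overlap. Ube2l6 was at 33.7, 32.8 and 38.9 CPM in KO libraries, against 53.7, 91.2 and 39.8 CPM in WT libraries, a wide WT spread (edgeR adjusted p = 0.359). Tor3a, an interferon-induced torsin-family ATPase gene, was at 0.790 times (edgeR adjusted p = 0.098). Znfx1, an RNA helicase gene, was at 0.863 times and Parp12 at 0.823 times, both without overlap. Ifitm2, next to Ifitm3 on chromosome 7, was at 0.998 times (95% interval of the log2 fold change -0.10 to 0.10). Of the 35 genes, 12 had KO lower without overlap (8.89% of all genes did) and 2 had KO higher (8.68%). The 2 were Tdrd7 at 1.03 times and Ifitm6 at 1.94 times (edgeR adjusted p = 0.409). Ifitm6 had only 31 to 100 counts per library.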

How the data were processed

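Poly(A) RNA of 6 libraries was sequenced as paired ends, per the labels' protocols, and the submitters' processing notes list the aligner HISAT2 2.0. The sources used here do not give the counting tool, strand use, annotation or build. Per the file headers, the authors deposited a count and an FPKM value for every gene and library. The counts are whole numbers, and FPKM is a count corrected for length and depth. There were 12 other sample columns with no matching label, which were not used.

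Counts of 27240 genes were filtered with filterByExpr (16239 kept), scaled by TMM and tested two-sided with edgeR 4.0.16 quasi-likelihood fits (R 4.3.3) on genotype alone. The p-values were adjusted by Benjamini-Hochberg over all genes tested and called at 0.05. Intervals are at the 95% level. The code was tested on simulated counts. Within each group every pair of libraries differed (chi-square over its degrees of freedom, 36.7 to 42.8), so none was a duplicate. How far that exceeds sampling noise depends on 1 count being 1 read, which is not stated. An exact permutation test of 3 against 3 cannot go below p = 0.1 and was not used. Alternatives used DESeq2 1.42.0, limma 3.58.1 on log2(FPKM + 1) or log2(FPKM + 0.1), RLE scaling, no filter, a block for the replicate number, limma voom with sample quality weights, and each library left out.

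The members, gene lists and tests were chosen with earlier results of these data known. Per role, the member with the highest FPKM and that with the smallest p are given in every library, and for the other pathway lists up to 3 genes of smallest p and the most abundant, some of which are not reported here. Rsad2, Ifi27l2a, Oasl1, Lgals3bp in full, Irf7, Tlr7, Ifnar1, Mavs, Parp12, Ifitm2, Ifitm6 and Tdrd7 were picked with their values in view. Possible shared reads were sought in GENCODE M21, from transcripts with a 50-base sequence in common and from exon overlaps.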

Additional observations from a re-analysis of the deposited data

How the results depend on the processing

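With 0 of 39 effector genes past the threshold in edgeR, the count was 13 with DESeq2 and otherwise 0 in the alternatives tried, except that leaving out 1 library gave 0 to 1. For the 67 other pathway genes the count was 0 with all libraries, 9 with DESeq2, 0 to 1 with 1 library left out and 1 (Tlr7) without both WT replicate 1 and KO replicate 3, the alternative added after seeing the data. With 1 library left out, the number of effector genes below 0 (33) ran from 29 to 34, where 49.7% to 51.5% of all genes lay below 0. The median log2 fold change ran from -0.24 to -0.16 there, and from -0.21 to -0.17 under other scalings, filters, tools and pseudocounts. The 24 genes without overlap were also 24 with RLE scaling and with FPKM.

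Some genes changed sign when libraries were left out, none of them past the threshold with all libraries. Not all were near 0 with all libraries, as Ifit3b was at -0.22, Lgals3bp at -0.16 and Oasl1 at -0.13. Over 1 library left out or both, the log2 fold change ranged from -0.033 to 0.068 for Oas1g, from -0.085 to 0.058 for Oas2, from -0.069 to 0.013 for Oas3 and from -0.39 to 0.46 for Oasl1. It ranged from -0.32 to 0.073 for Ifit3b, from -0.15 to 0.0033 for Ifi35, from -0.23 to 0.11 for Ifi44 and from -0.26 to 0.025 for Lgals3bp. The causes were not tested. Genes under 10 CPM, such as Mx2, Ifit3b, Isg20 and Ifi44, rest on the fewest counts.

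With the replicate number as a block the median was -0.21, 33 genes lay below 0 and 0 passed. Same-numbered KO and WT libraries had deviations correlated at only 0.015 to 0.050, although each library correlated best with its own number. Whether the numbers pair the samples is not stated, and correlations this small cannot decide it. Over all genes edgeR called 11, or 3 with the block, 35 without KO replicate 1, 7 without WT replicate 1, 24 without WT replicate 2 and 7 with no filter. DESeq2 called 455, and limma voom with sample quality weights, which changes both tool and weights, 22.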
